A study of Mus musculus with 6 samples.

Results

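Genes that mark the stem cells at the base of the intestinal crypt, or that report Wnt signalling there, were followed in the duodenum of mice without the vitamin D receptor. They are 10 genes: Lgr5, Tnfrsf19, Ascl2, Sox9, Olfm4, Smoc2, Axin2, Nkd1, Rnf43 and Znrf3, out of the 22180 genes with a probe set that the platform annotation pairs with a single symbol. The genes were chosen by name, with earlier results of these data known. A gene with several probe sets is represented by its brightest one, averaged across the 6 arrays. All 10 passed the filter on dim signals, which kept 13174 genes with at least 3 of 6 arrays above 5.17, the median of all values.

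The VDR-null group held 3 mice lacking the vitamin D receptor and the wild-type group 3 mice with it. All were 10 weeks old and of the C57Bl/6 background, and each mouse gave 1 whole-transcript array of duodenal RNA. The labels name neither the mutant Vdr allele nor the sex or diet of the mice. Signals were deposited on a log2 scale, so a difference of 1 is a doubling, and all differences below are VDR-null minus wild-type. Standard errors and 95% confidence intervals come from limma, fitted over all 13174 genes.

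The crypts of the small intestine hold cycling stem cells wedged between Paneth cells. Wnt ligands bind Frizzled and Lrp5/6 receptors, which stops the breakdown of beta-catenin and lets it act with TCF factors on target genes. R-spondins, bound by Lgr5 and its relatives, raise the signal by removing the ubiquitin ligases Rnf43 and Znrf3, which otherwise clear Frizzled from the membrane. Several targets, among them Axin2, Nkd1, Rnf43 and Znrf3, feed back as inhibitors. In human colon cancer cells the liganded vitamin D receptor is known to bind beta-catenin.

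Promoter sequence is shown for 3 of the genes because all 10 differences ran the same way and the list is defined partly by control through TCF factors. RefSeq promoters on GRCm38.p6, each 250 bases before and 50 after an annotated transcription start, were found for 6 of the 10 genes, 8 windows in all. They were searched on both strands for CTTTGAT and CTTTGAA, cores bound by TCF factors that do not overlap each other, and for the DR3-type vitamin D response element. Capitals mark the only match, a CTTTGAT on the opposite strand at position -202 from one of the Tnfrsf19 starts. The windows lie at chr14:61037938-61038237 (minus strand) for Tnfrsf19, chr11:108920099-108920398 (plus strand) for Axin2 and chr7:142969215-142969514 (minus strand) for Ascl2, and are written 5′ to 3′ in the direction of the gene.
Tnfrsf19: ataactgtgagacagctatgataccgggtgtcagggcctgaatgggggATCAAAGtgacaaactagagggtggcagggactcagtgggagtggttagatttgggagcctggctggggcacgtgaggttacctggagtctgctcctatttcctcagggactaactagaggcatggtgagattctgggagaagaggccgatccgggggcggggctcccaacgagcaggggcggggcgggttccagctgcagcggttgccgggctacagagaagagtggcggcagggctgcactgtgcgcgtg
Axin2: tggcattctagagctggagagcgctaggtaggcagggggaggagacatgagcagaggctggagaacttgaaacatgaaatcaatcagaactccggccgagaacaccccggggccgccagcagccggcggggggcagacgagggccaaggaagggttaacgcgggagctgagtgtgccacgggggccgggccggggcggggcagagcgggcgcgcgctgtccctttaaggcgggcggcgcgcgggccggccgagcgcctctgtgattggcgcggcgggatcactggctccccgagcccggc
Ascl2: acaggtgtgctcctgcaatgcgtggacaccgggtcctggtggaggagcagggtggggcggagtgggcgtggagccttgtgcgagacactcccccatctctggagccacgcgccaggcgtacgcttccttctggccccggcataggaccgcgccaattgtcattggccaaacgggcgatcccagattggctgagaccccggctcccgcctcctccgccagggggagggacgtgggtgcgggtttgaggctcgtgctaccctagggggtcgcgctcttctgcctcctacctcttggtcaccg

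CTTTGAT stood in 1 of the 8 member windows, against 3.73% of all 32851 promoters of this length. CTTTGAA stood in 0 of the 8, against 5.14% of all promoters. The DR3-type element stood in 0 of the 8 member windows and in 0.0396% of all promoters. These counts describe the letters in these windows only.

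The arrays gave medians between 5.15 and 5.19, and villus enterocyte markers were bright, with a list mean between 11.02 and 12.17 on VDR-null arrays and between 9.56 and 11.4 on wild-type arrays. Vdr did not separate the groups (probe set means 10.90 ± 0.08 in VDR-null and 10.92 ± 0.20 in wild-type duodenum, SD, n = 3 each), and whether its probes lie in the part removed is not known here, so this is no check of the labels. One array of each genotype stood apart: VDR-null replicate 1 at -34.6 and wild-type replicate 1 at 34.7 on a leading component with 62.2% of the variance. The other 4 arrays lay between -10.1 and 9.63, and the 10 genes and each gene list are also given without both replicate 1 arrays.

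All 10 genes were lower in VDR-null duodenum, by 0.14 to 0.54 on the log2 scale. The median of the 10 differences was -0.33, against -0.03 over all tested genes, of which 56% were below 0. As the 10 were chosen with earlier results of these data known, their shared direction is a description and no test. None of the 10 passed an adjusted p of 0.05 in limma, and neither did any of the 13174 genes, 0% of those tested, with 689 genes at an unadjusted p under 0.05. The adjusted p of the 10 genes ran from 0.683 to 0.744. Of the 10, 2 had an unadjusted p under 0.05, Lgr5 and Nkd1, where 3.03% of all tested genes were lower at that level. In 2 of the 10, Lgr5 and Tnfrsf19, every VDR-null array lay below every wild-type array, as in 6.22% of all tested genes. In bulk tissue, fewer stem cells and less transcript per stem cell cannot be told apart.

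**Figure D1:**
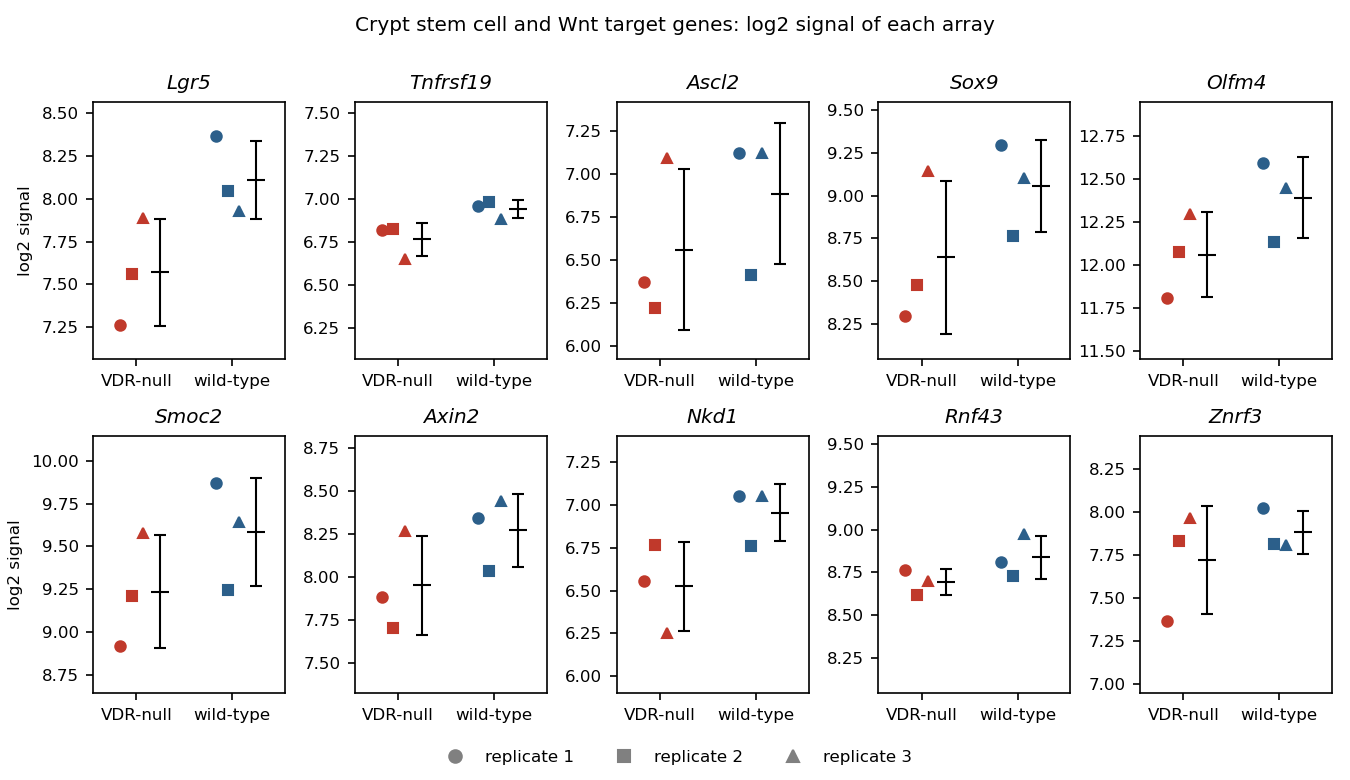
Log2 signal of each of the 10 genes on each array, with VDR-null arrays on the left in red and wild-type arrays on the right in blue. The marker shape gives the replicate number, and the black bar shows the mean ± SD of 3 arrays; every panel spans the same height on the log2 axis. Every VDR-null mean lies below its wild-type mean, and the point clouds stay apart only in Lgr5 and Tnfrsf19.

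The receptors come first. Lgr5, the R-spondin receptor that defines the cycling stem cells of the crypt base, had the lowest difference of the 10. It read 7.27, 7.56 and 7.89 on VDR-null arrays 1 to 3, against 8.36, 8.04 and 7.92 on wild-type arrays 1 to 3. The groups did not overlap, but only 0.04 separated the highest VDR-null array from the lowest wild-type array. The difference was -0.54 ± 0.19 (SE, n = 3 each), with a 95% confidence interval of -0.98 to -0.10 and a limma adjusted p of 0.683, or 1.45-fold higher in wild-type. Of all tested genes 0.159% had a lower difference. A second, dimmer Lgr5 probe set, above the table's median on 3 of 6 arrays, showed no such separation: it read 4.99, 5.01 and 5.31 on VDR-null arrays and 5.21, 5.18 and 4.97 on wild-type arrays (difference -0.02 ± 0.12, SE). With the mean of both probe sets the Lgr5 difference was -0.28.

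Tnfrsf19, also called Troy, is a receptor of the TNF receptor superfamily and a Wnt target that marks Lgr5-positive cells in mice. VDR-null arrays read 6.82, 6.82 and 6.65, against 6.96, 6.98 and 6.88 on wild-type arrays. It varied little among mice of a genotype (SD 0.10 in VDR-null and 0.05 in wild-type), and the gap between the groups was 0.06. The difference was small at -0.18 ± 0.09 (SE), the confidence interval reached from -0.39 to 0.04, and the adjusted p in limma was 0.683. Its order of arrays was unlike that of Lgr5: VDR-null replicate 3, the highest VDR-null array in Lgr5, was the lowest of all 6 in Tnfrsf19.

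Ascl2 and Sox9 are transcription factors of the crypt. Ascl2, a Wnt-dependent factor that maintains stem cell identity, read 6.37, 6.22 and 7.09 in VDR-null duodenum and 7.12, 6.41 and 7.12 in wild-type duodenum. Each genotype thus had arrays near both ends of the range, and the difference of -0.33 ± 0.28 (SE) had a 95% confidence interval from -1.001 to 0.35. Sox9, present in stem cells, progenitors and Paneth cells, read 8.30, 8.48 and 9.14 on VDR-null arrays, against 9.30, 8.77 and 9.10 on wild-type arrays. VDR-null replicate 3 lay above 2 of the 3 wild-type arrays. The Sox9 difference was -0.41 ± 0.24 (SE, adjusted p = 0.683 in limma, interval -0.99 to 0.16).

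Olfm4 and Smoc2 encode secreted proteins. Olfm4, a glycoprotein that marks stem cells in the small intestine and is regulated by Notch, was bright on every array. It read 11.81, 12.08 and 12.30 in VDR-null duodenum, against 12.59, 12.13 and 12.45 in wild-type duodenum, a difference of -0.33 ± 0.17 (SE; 95% confidence interval -0.73 to 0.07). Smoc2, a calcium-binding matrix protein of the Lgr5 stem cell signature, read 8.92, 9.21 and 9.58 on VDR-null arrays and 9.87, 9.24 and 9.64 on wild-type arrays, a difference of -0.35 ± 0.21 (SE). In both genes VDR-null replicate 1 was the lowest and wild-type replicate 1 the highest array, and VDR-null replicate 3 lay above wild-type replicate 2. Neutrophils also make Olfm4. Of the 9 neutrophil markers looked up, 8 were too dim to be tested, S100a8, S100a9 and Mpo among them, and the one tested differed by 0.07; their part in the Olfm4 signal was not tested.

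The feedback inhibitors Axin2 and Nkd1 act inside the cell. Axin2, a scaffold of the complex that degrades beta-catenin and a common reporter of Wnt activity, read 7.89, 7.71 and 8.27 in VDR-null duodenum, against 8.35, 8.03 and 8.44 in wild-type duodenum. The difference was -0.32 ± 0.17 (SE, adjusted p = 0.683 in limma, interval -0.74 to 0.10). A dimmer second Axin2 probe set, above the table's median on 1 of 6 arrays, differed by -0.26 ± 0.11 (SE). Nkd1, which binds dishevelled and damps Wnt signalling, read 6.55, 6.77 and 6.25 on VDR-null arrays and 7.05, 6.76 and 7.05 on wild-type arrays. VDR-null replicate 2 and wild-type replicate 2 stood at nearly the same level, and the other arrays were separated by genotype. The Nkd1 difference of -0.43 ± 0.16 (SE, adjusted p = 0.683 in limma, interval -0.80 to -0.06) was the second lowest of the 10.

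Rnf43 and Znrf3, the paired ubiquitin ligases that remove Frizzled receptors, were among the 3 genes with the smallest differences. Rnf43 read 8.77, 8.62 and 8.70 in VDR-null duodenum, against 8.81, 8.73 and 8.97 in wild-type duodenum. The groups overlapped, with a difference of -0.14 ± 0.10 (SE, adjusted p = 0.684 in limma, interval -0.38 to 0.09). Znrf3 read 7.36, 7.83 and 7.97 on VDR-null arrays and 8.02, 7.81 and 7.81 on wild-type arrays. Its difference of -0.16 ± 0.17 (SE; limma adjusted p = 0.744) rested on VDR-null replicate 1, without which it was 0.02. Of all tested genes 23.1% had a lower difference than Rnf43 and 19.6% a lower one than Znrf3.

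**Figure D2:**
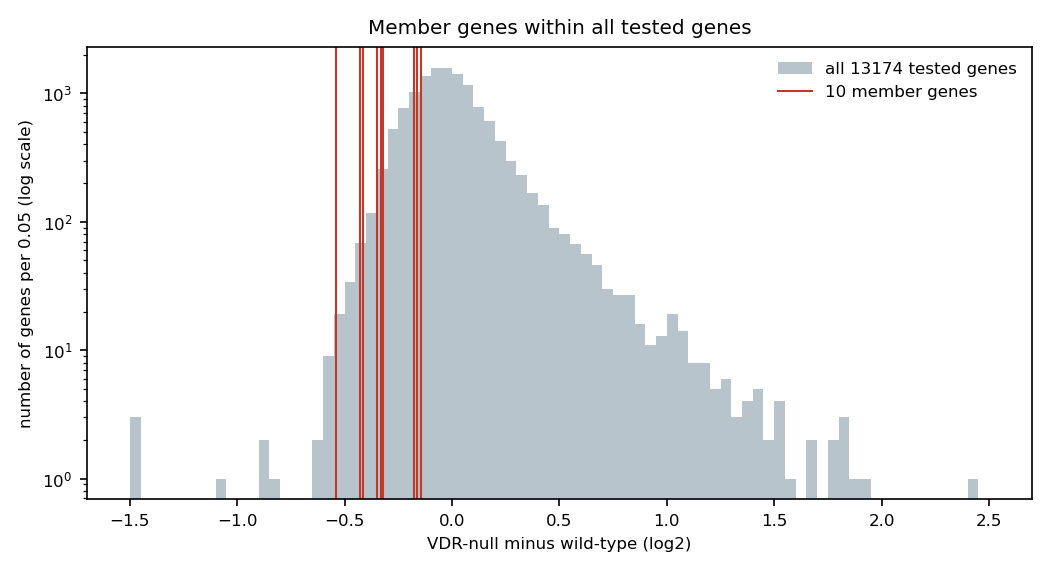
Histogram of the VDR-null minus wild-type difference (log2, horizontal axis) of all 13174 tested genes, in bins of 0.05 with gene counts on a log scale, with the 10 genes drawn as red lines. The 10 lines lie between -0.54 and -0.14, left of the median of all genes at -0.03.

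The 10 genes did not move from mouse to mouse as 1 block. Each array's deviation from a gene's mean over the 6 arrays averaged -0.33, -0.20 and 0.05 over the 10 genes on VDR-null replicates 1 to 3, against 0.31, -0.04 and 0.21 on wild-type replicates 1 to 3. VDR-null replicate 3 was above the gene's own mean in 7 of the 10 genes, while wild-type replicate 2 was below it in 6. Wild-type replicates 1 and 3 were above it in all 10. The lowest array was VDR-null replicate 1 in 5 genes, replicate 2 in 3 and replicate 3 in 2, and the highest array was always a wild-type one.

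**Figure D3:**
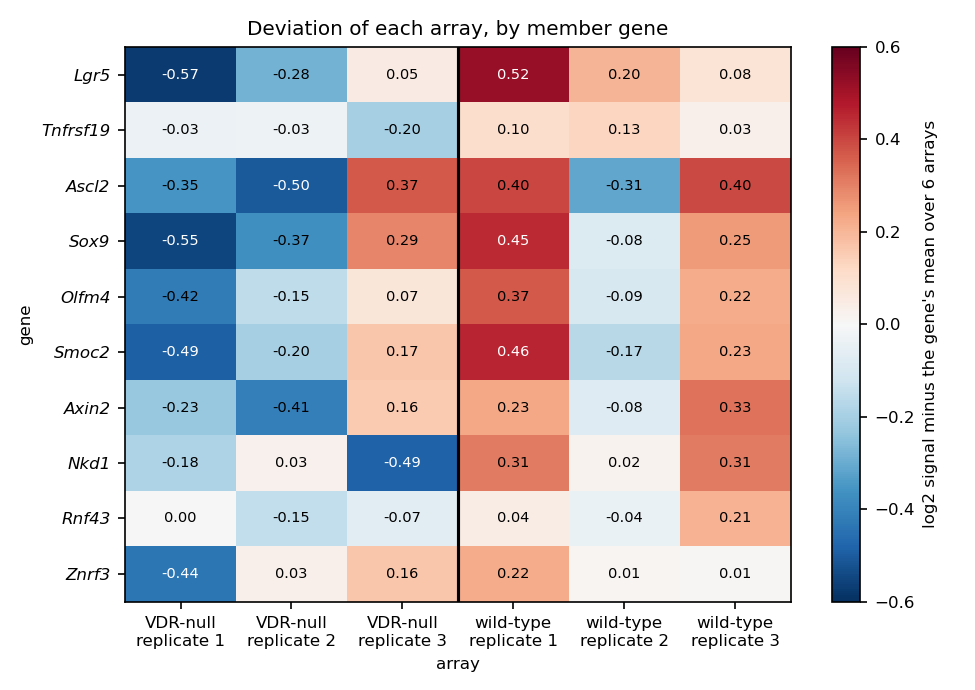
Deviation of each array (columns, 3 VDR-null arrays left of the black line and 3 wild-type arrays right of it) from the gene's mean over 6 arrays, in log2 units, for each of the 10 genes (rows). Sox9, Olfm4, Smoc2 and Ascl2 have similar orders of arrays, with VDR-null replicate 3 above the gene's mean, whereas in Nkd1 and Tnfrsf19 that array is the lowest, at -0.49 and -0.20.

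Sox9, Olfm4 and Smoc2 ran most closely together, with Pearson correlations over the 6 arrays of 0.953 to 0.99 among them and 0.932 to 0.996 after each genotype's mean was taken out. Ascl2 and Axin2 followed each other at 0.958. Tnfrsf19 stood apart, with a median correlation with the other 9 genes of 0.104 over the arrays and -0.67 within genotype. For Nkd1 these medians were 0.405 and -0.15, and for Rnf43 0.458 and 0.14. Tnfrsf19 and Nkd1 correlated with each other at 0.812. These values rest on 6 arrays that share tissue composition, and they describe the arrays only.

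Genes of dividing cells varied along a similar order of arrays, and those of the villus along the opposite one. The 15 villus enterocyte markers were all tested and all higher in VDR-null duodenum, with a median difference of 0.72, 2 of them at an unadjusted p under 0.05. This rested on the replicate 1 arrays: without both, 8 of the 15 were higher and the median was 0.01. As a mean over the list, relative to the 6 arrays, they lay at 1.00, 0.43 and -0.15 on VDR-null replicates 1 to 3 and at -1.61, 0.21 and 0.12 on wild-type replicates 1 to 3. The 23 tested genes of cell division were all lower, with a median of -0.26 and 2 at an unadjusted p under 0.05; Mki67, the proliferation marker, differed by -0.42 ± 0.17 (SE). With both replicate 1 arrays left out, 14 of the 23 were lower, the median was -0.03 and Mki67 differed by -0.20 ± 0.17. With all arrays the mean of the 23 lay at -0.40, -0.14 and 0.17 on VDR-null arrays, against 0.33, -0.12 and 0.15 on wild-type arrays. Of all 13174 tested genes, 290 were higher and 399 lower at an unadjusted p under 0.05 with all arrays. None of the villus or cell division genes passed the threshold over all genes.

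With the villus mean as a covariate, Smoc2 differed by -0.07 ± 0.16, Ascl2 by -0.06 ± 0.28, Sox9 by -0.13 ± 0.20 and Olfm4 by -0.13 ± 0.14 (SE), each less than its standard error. Nkd1 still differed by -0.43 ± 0.19, Tnfrsf19 by -0.20 ± 0.11 and Rnf43 by -0.17 ± 0.12, close to their values without the covariate. Lgr5 lay between, at -0.29 ± 0.13, and Axin2 at -0.21 ± 0.19. Both covariates have their lowest and highest values on the replicate 1 arrays. The cell division mean, added after the data were seen, gave -0.45 ± 0.18 for Nkd1, -0.23 ± 0.09 for Tnfrsf19, -0.13 ± 0.11 for Rnf43 and -0.32 ± 0.13 for Lgr5. Under it Smoc2 differed by -0.04 ± 0.08, Sox9 by -0.07 ± 0.10 and Olfm4 by -0.10 ± 0.08, and Ascl2 by 0.03 ± 0.19. The limma adjusted p was 1 for each of the 10 genes with the villus covariate and 0.997 with the cell division one. Whether the genes differ among themselves in this respect was not tested.

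Without both replicate 1 arrays, which leaves 2 mice a genotype, the values were ordered in a similar way. Since both covariates have their extremes on those arrays, this is no separate check of the covariate fits. Nkd1 differed by -0.40 ± 0.21 (SE), Lgr5 by -0.26 ± 0.15, Axin2 by -0.25 ± 0.24, Tnfrsf19 by -0.19 ± 0.11 and Rnf43 by -0.19 ± 0.13. Smoc2 lay at -0.05 ± 0.19, Olfm4 at -0.10 ± 0.16, Ascl2 at -0.11 ± 0.37 and Sox9 at -0.12 ± 0.25. The median of the 10 was then -0.16, against -0.33 with all arrays, with 9 of the 10 still lower. Over all tested genes the median was then 0.01 and 45.6% were lower, and the limma adjusted p was 0.999 for each gene. With only VDR-null replicate 3 left out, Nkd1 differed by -0.29 ± 0.14 (SE), Tnfrsf19 by -0.12 ± 0.10 and Rnf43 by -0.15 ± 0.12. Sox9 was then at -0.67 ± 0.18, Ascl2 at -0.59 ± 0.24, Smoc2 at -0.52 ± 0.21 and Olfm4 at -0.45 ± 0.17. With only wild-type replicate 3 left out, Rnf43 differed by -0.07 ± 0.11.

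**Figure D4:**
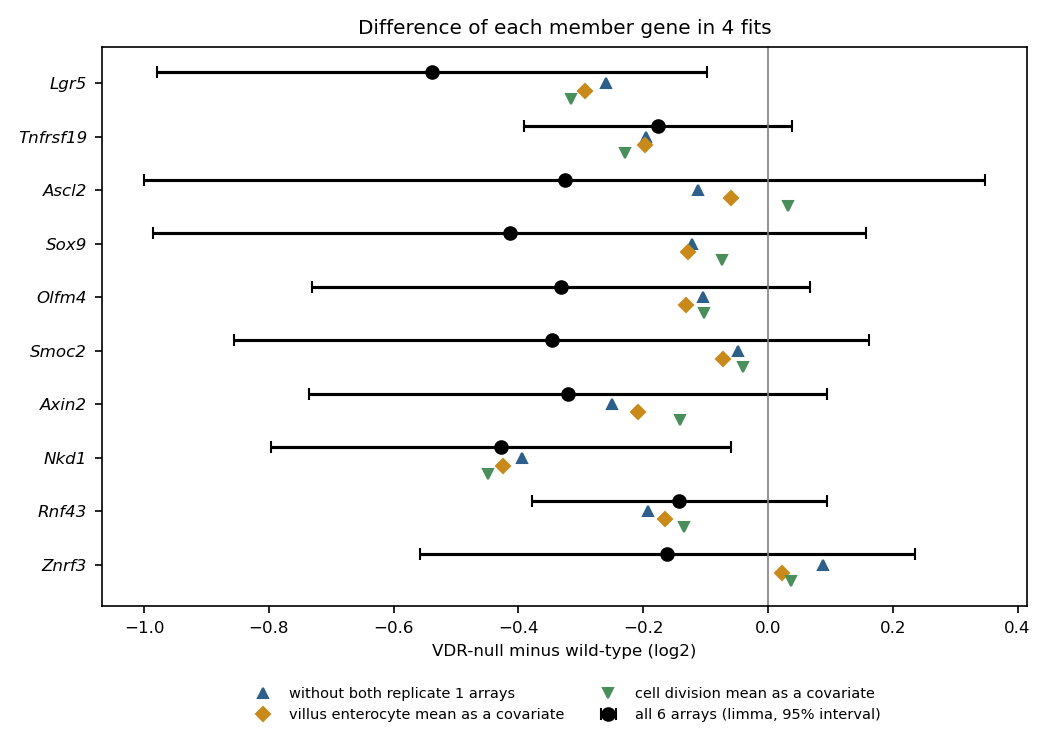
VDR-null minus wild-type difference (log2, horizontal axis) of each of the 10 genes. Black circles with bars give the limma estimate and 95% confidence interval from all 6 arrays; triangles, diamonds and inverted triangles give the estimate without both replicate 1 arrays, with the villus enterocyte mean and with the cell division mean as a covariate. Nkd1, Tnfrsf19 and Rnf43 change little over these 4 fits, while Smoc2, Sox9, Olfm4 and Ascl2 move towards 0. All 4 fits keep both replicate 3 arrays.

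Other genes of the crypt base stem cell were mostly lower as well. Of the 20 looked up, 19 were tested and 16 were lower, with a median of -0.23. An unadjusted p under 0.05 was reached by 4 of these, where 3.03% of all tested genes were lower at that level. Gkn3, which mouse single-cell surveys place among stem cell markers, averaged 7.03 ± 0.21 (SD, n = 3) in VDR-null and 8.09 ± 0.23 (n = 3) in wild-type duodenum, a difference of -1.06 ± 0.16 (SE). Gkn3 is also a gene of the stomach mucosa; Gkn1, Gkn2 and Muc5ac, markers of gastric-type mucosa, were too dim to be tested, and the other 4 such markers, given further on, were lower as well. The BMP co-receptor Rgmb differed by -0.34 ± 0.12, the IGF-binding protein Igfbp4 by -0.37 ± 0.12, the transporter Slc12a2 by -0.50 ± 0.21 and Cdca7 by -0.46 ± 0.19. In 4 of the 19 every VDR-null array lay below every wild-type array, as in 6.22% of all tested genes. Gkn3, Rgmb and Igfbp4 were among them, with gaps between the groups of 0.66, 0.019 and 0.015. Prom1 at -0.18 ± 0.22 and the RNA-binding protein Msi1 at -0.14 ± 0.15 lay within their error. When both replicate 1 arrays were left out, 14 of the 19 were lower and the median was -0.09. Gkn3 then differed by -0.88 ± 0.16, Rgmb by -0.30 ± 0.16, Igfbp4 by -0.28 ± 0.15, Slc12a2 by -0.24 ± 0.22 and Cdca7 by -0.24 ± 0.20, while Prom1 turned to 0.14 ± 0.13.

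Markers ascribed to reserve or regenerating stem cells split, with 4 of 6 tested genes lower and a median of -0.14. This list shares members, Lrig1 among them, with that of the other crypt base genes. Clu, a marker of regenerating epithelium, differed by -0.33 ± 0.16 (SE), Lrig1 by -0.23 ± 0.16 and Hopx by 0.01 ± 0.09, and Bmi1 was too dim to be tested. In the Notch pathway 10 of 13 genes were lower, with a median of -0.07 and none at an unadjusted p under 0.05. The receptor Notch1 differed by -0.26 ± 0.14, its target Hes1 by -0.41 ± 0.19, the ligand Dll1 by -0.07 ± 0.13 and the secretory factor Atoh1 by 0.04 ± 0.18. The median of the reserve list without both replicate 1 arrays was -0.05, with Clu at -0.41 ± 0.21 and Lrig1 at -0.09 ± 0.19. That of the Notch list was 0.0044, with 6 of 13 (46.2%) lower, Hes1 at -0.17 ± 0.19 and Notch1 at -0.08 ± 0.13. Over all tested genes the median was then 0.01 and 45.6% were lower.

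The core of the Wnt pathway lay near the middle of all tested genes. Of 30 tested receptors and signal transducers 19 were lower, with a median of -0.03, the same as that of all tested genes. Lgr4, the wider-expressed relative of Lgr5, differed by -0.29 ± 0.12 (SE), but the co-receptors Lrp5 and Lrp6 by -0.03 ± 0.11 and -0.11 ± 0.08 and the receptors Fzd5 and Fzd7 by 0.01 ± 0.10 and -0.05 ± 0.12. Ctnnb1, which encodes beta-catenin, differed by -0.10 ± 0.08, Apc by 0.02 ± 0.09, the TCF factor Tcf7l2 by 0.16 ± 0.13 and Lef1 by 0.15 ± 0.15. Only 2 of the 30 had an unadjusted p under 0.05, both lower, where 3.03% of all tested genes were lower at that level. Without both replicate 1 arrays 18 of the 30 (60%) were lower, beside 45.6% of all tested genes. The median was -0.03, against 0.01 over all tested genes. Lgr4 was then at -0.18 ± 0.13, and Apc and Tcf7l2 turned to -0.03 ± 0.10 and -0.02 ± 0.10. The lists were not tested against each other.

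Wnt ligands and the proteins that release them were tested in 14 of 22 cases, and 10 of these were lower (median -0.09). Wls, which carries Wnt proteins to the cell surface, differed by -0.38 ± 0.15 (SE) and the stromal ligand Wnt2b by -0.24 ± 0.12, while Wnt3, made by Paneth cells, differed by 0.13 ± 0.18. The R-spondins Rspo1 and Rspo3 differed by -0.14 ± 0.09 and -0.15 ± 0.14, and Porcn and Wnt5a by -0.14 ± 0.12 and -0.05 ± 0.16. Secreted antagonists were lower in 5 of 7 tested cases (median -0.16), with Dkk2 at -0.39 ± 0.13, Sfrp1 at -0.28 ± 0.15, Wif1 at -0.16 ± 0.09 and Dkk3 at -0.09 ± 0.13. Notum was too dim to be tested. Of 14 further Wnt targets 8 were lower, a share of 57.1% beside 56% of all tested genes (median -0.11). Nkd2 differed by -0.33 ± 0.14, Cd44 by -0.31 ± 0.20, Myc by -0.30 ± 0.21, the crypt guidance receptor Ephb3 by -0.16 ± 0.18 and Ccnd1 by -0.09 ± 0.21. The 6 higher ones were Apcdd1, Cdx1, Prox1, Lef1, Zfp703 and Sp5, from 0.02 ± 0.12 in Apcdd1 to 0.34 ± 0.21 in Sp5, a transcription factor induced by Wnt; those not fixed by name were added after their values were seen. Dkk2, Wif1 and Lef1 stand in 2 of these lists, and none of the list genes passed the threshold over all genes.

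When both replicate 1 arrays were left out, 5 of the 14 further Wnt targets (35.7%) were lower, with a median of 0.05. Over all tested genes 45.6% were then lower, with a median of 0.01. Cd44 was then at -0.02 ± 0.11, Myc at -0.11 ± 0.21, Nkd2 at -0.25 ± 0.18, Ephb3 at 0.08 ± 0.18 and Ccnd1 at 0.11 ± 0.24. Of the ligands 9 of 14 were lower (median -0.04), with Wls at -0.17 ± 0.12, Wnt2b at -0.13 ± 0.14, Rspo3 at 0.000825 ± 0.15, Wnt5a at 0.07 ± 0.21, Wnt3 at 0.32 ± 0.20 and Porcn at -0.26 ± 0.11. The antagonists had 6 of 7 lower (median -0.15), with Dkk2 at -0.27 ± 0.12, Sfrp1 at -0.05 ± 0.10 and Dkk3 at 0.03 ± 0.14.

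Cell types around the stem cells were looked at in the same way. All 10 tested Paneth cell genes were lower (median -0.18), with a list mean relative to the 6 arrays of -0.53, -0.12 and 0.38 on VDR-null arrays and 0.67, -0.03 and -0.36 on wild-type arrays. Smooth muscle markers were lower in 10 of 10 cases (median -0.40), 6 of them at an unadjusted p under 0.05 and 6 without overlap. Over all tested genes 3.03% were lower at that level, and 6.22% had every VDR-null array below every wild-type array. The smooth muscle list mean was 9.48 to 9.49 on VDR-null arrays and 9.54 to 10.07 on wild-type arrays. Fibroblast and telocyte markers were lower in 11 of 12 cases (median -0.25) and endothelial markers in 7 of 7 (median -0.35). Fibroblast levels ran from 8.23 to 8.47 on VDR-null and from 8.48 to 8.80 on wild-type arrays, and endothelial levels from 7.99 to 8.22 and from 8.25 to 8.66. Brunner gland and gastric-type markers were lower in 4 of 4 tested cases (median -0.96), with levels of 5.52 to 6.45 on VDR-null arrays and 6.01 to 7.46 on wild-type arrays. Without both replicate 1 arrays 9 of the 10 Paneth cell genes were higher in VDR-null duodenum (median 0.33), and the fibroblast list had 5 of 12 lower (median 0.02). Smooth muscle markers were then lower in 10 of 10 cases (median -0.30), 1 of them at an unadjusted p under 0.05, as were 207 of all 13174 tested genes. Endothelial markers were then lower in 6 of 7 cases (median -0.14) and the Brunner gland list in 4 of 4 (median -0.88). What part these cell types have in the differences of the 10 genes was not tested.

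**Figure D5:**
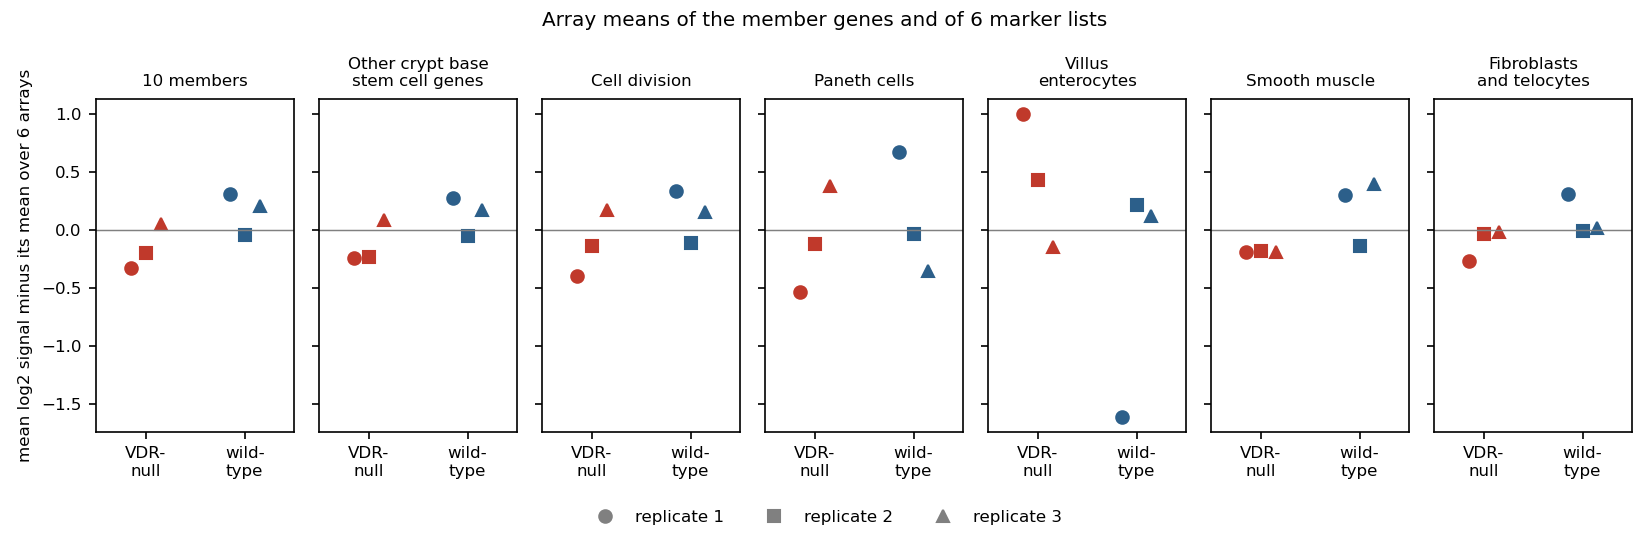
Mean log2 signal of the 10 genes and of 6 marker lists on each array, relative to its mean over the 6 arrays; VDR-null arrays are on the left of each panel in red, wild-type arrays on the right in blue, and shapes give the replicate number. The 10 genes, other crypt base genes and cell division genes follow a similar order of arrays, and the villus enterocyte list runs the other way, from 1.00 on VDR-null replicate 1 to -1.61 on wild-type replicate 1.

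Goblet cell markers split 4 lower and 4 higher (median -0.01), tuft cell markers 2 lower and 5 higher (median 0.06) and enteroendocrine markers 6 lower and 4 higher (median -0.10). Leukocyte markers were lower in 1 of 9 tested cases (median 0.12), enteric neuron and glia markers in 4 of 4 (median -0.11). Without both replicate 1 arrays the goblet median was 0.12, with 7 of 8 higher, and the tuft median -0.07, with 4 of 7 lower; the enteroendocrine median was -0.11, the leukocyte one 0.23 and the neuron and glia one -0.12. Of the 7 pancreatic acinar genes with a probe set 3 were tested, all higher (median 1.87, and 2.34 without both replicate 1 arrays), with VDR-null replicate 3 at 2.83 above the mean of the 6 arrays, and the single neutrophil gene tested differed by 0.07, or 0.24 without those arrays.

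The genes whose pattern over the 6 arrays was most like that of the 10, by Pearson correlation with the mean of their standardised values, were Usp34 (0.999), Huwe1 (0.996), Cdo1 (0.996), Arid5b (0.996) and Smo (0.995). Usp34 and Huwe1 encode large enzymes of the ubiquitin system, Cdo1 a cysteine dioxygenase, Arid5b a DNA-binding cofactor and Smo the signal-transducing receptor of the Hedgehog pathway. Cdo1 averaged 6.75 ± 0.22 (SD, n = 3) in VDR-null and 7.32 ± 0.27 (n = 3) in wild-type duodenum, and the other 4 differed by -0.15 to -0.44. Without both replicate 1 arrays Cdo1 differed by -0.37 ± 0.18 (SE), Arid5b by -0.25 ± 0.16, Huwe1 by -0.17 ± 0.12, Smo by -0.16 ± 0.13 and Usp34 by -0.09 ± 0.11. A correlation above 0.9 was reached by 766 genes, 5.82% of those tested, so this likeness is common on these arrays.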

How the data were processed

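RNA from the duodenum of 3 VDR-null and 3 wild-type mice was measured on Affymetrix Mouse Gene 2.0 ST arrays, grouped by sample title. The authors deposited a log2 value for each probe set on each array. The submitters' processing notes name RMA and Affymetrix Expression Console but neither a version nor which arrays were normalized as 1 set. That the log is to base 2 follows from RMA and the range, 1.99 to 13.8.

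Of 41345 probe sets 23521 had 1 gene symbol. The genotypes were compared by lmFit and eBayes of limma 3.58.1, run in R 4.3.3 (two-sided, no covariate), and adjusted by Benjamini-Hochberg over the 13174 tested genes, at a threshold of 0.05. The fit was tested on simulated data. The number of arrays limits the precision.

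The 10 genes, the 21 lists (274 genes, 260 with a probe set) and the list genes named were chosen with earlier results of these data known. Most list genes named are those fixed by name for their place in the pathway. Apcdd1, Cdx1, Prox1, Zfp703 and Sp5 were added after their values were seen. S100a8, S100a9, Mpo, Gkn1, Gkn2 and Muc5ac are named only as too dim to be tested. The likeness genes are the 5 with the highest correlation. Alternatives were other filters, normalizations, priors and probe set rules, a block for the replicate number, weighting of arrays, omitted arrays and covariates. The lists without both replicate 1 arrays were added after the data were seen.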

Additional observations from a re-analysis of the deposited data

How the results depend on the processing

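No alternative placed any of the 10 genes past the threshold, and 205 of 210 recomputed differences kept their sign, with limma adjusted p from 0.191 to 1. The 210 include settings in which no sign could turn. Other filters, priors or sets of tested rows, and the balanced replicate block, leave each difference at its main value. The 5 that turned were Znrf3 in 4 settings and Ascl2 in 1. Leaving out 1 array gave Znrf3 differences from -0.284 to 0.0165, with the positive one without VDR-null replicate 1, and Znrf3 was also positive without both replicate 1 arrays (0.0875) and with the villus (0.0222) or the cell division covariate (0.0361). Ascl2 was 0.0317 with the cell division covariate, under which the median of the 10 was -0.12, a move larger than the replicate spread; the cause was not tested. With a single array left out, the median of the 10 ran from -0.49 without wild-type replicate 2 to -0.22 without 1 or the other replicate 1 array. It was -0.46 without VDR-null replicate 3. Without both replicate 1 arrays it was -0.16, and with the villus covariate -0.15.

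Array weights put 7 of the 10 at an unadjusted p under 0.05, against 2 without them; without VDR-null replicate 3 it was 6 and without wild-type replicate 2 it was 4. The number of all tested genes at that level was larger in these settings too, 2718, 1569 and 1245 in the same order, against 689. With the replicate number as a block (replicate block) no difference can change, because each number holds 1 array of each genotype. The unadjusted p of Lgr5 in limma was then 0.0639, against 0.0235 without the block. Axin2 alone of the 10 was under 0.05 unadjusted, and 338 genes in all were, against 689. Arrays with the same number deviated from their genotype means with correlations of -0.62, 0.193 and -0.26, and only VDR-null replicate 2 correlated best with its own number, so the numbers are not taken to pair the mice.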
